A study of Sus scrofa with 12 samples.

Results

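The data describe the glucocorticoid pathway in the Semimembranosus muscle, a ham muscle, of 12 Italian Large White pigs. The genes were taken by symbol from a list of 8 names, namely NR3C1, NR3C2, HSD11B1, FKBP5, TSC22D3, ZBTB16, SGK1 and ERRFI1. A row was found for 7 of them among the 25880 genes counted, and all 7 were among the 14262 genes with enough counts to be tested. TSC22D3, the gene of the anti-inflammatory protein GILZ, is not analysed here. The study compared 6 pigs with a high content of intramuscular fat (IMF, pigs 1 to 6) with 6 pigs with a low content (pigs 7 to 12). Each group was labelled as 3 gilts and 3 barrows, which are castrated males. High IMF pigs were 234 to 244 days old and low IMF pigs 229 to 249 days old, all had the same housing, diet and labelled weight class, and their muscle was frozen after slaughter. The pigs were picked from the extremes of a larger population for their fat content and not for a hormone, and the labels name neither a steroid treatment nor a cortisol level. Slaughter took place on several days, and which pigs shared a day or a sequencing lane was not analysed here.

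Glucocorticoids such as cortisol are released by the adrenal gland in stress and fasting. Inside the cell the hormone binds the glucocorticoid receptor, encoded by NR3C1, which is held ready by heat shock proteins, moves to the nucleus and switches genes on or off. In skeletal muscle this pathway is known for breaking down protein and for sparing glucose. NR3C2 encodes the mineralocorticoid receptor, which binds cortisol as well as aldosterone. HSD11B1 makes active cortisol from inactive cortisone within the tissue. FKBP5, ZBTB16, SGK1 and ERRFI1 are genes that glucocorticoids are known to induce in many tissues.

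The libraries held between 131048805 and 178013997 counts. At the lowest count of each of the 7 genes, Poisson counting error was 0.60% of the count for NR3C1 to 5.57% for HSD11B1. For each gene that was below the spread of CPM between pigs of either group, the closest being NR3C2 in high IMF pigs, at 2.51% against 4.38%. Before any result, 6 of the 12 pigs did not match their labelled sex. Counts of EIF1AY and KDM5D, on the Y chromosome, were at most 6 in one set of pigs and at least 3734 in the other. Pigs 3 and 5 of the high IMF group and pigs 7, 8, 9 and 10 of the low IMF group were on the side that their label does not give. Whether the label of sex or of the library is at fault cannot be told apart here. The log2FC of the 7 genes and of some list genes is therefore also given for the 6 pigs that matched. They are pigs 1, 2, 4 and 6 of the high and pigs 11 and 12 of the low IMF group. The joint levels and the relations between genes were not computed for these pigs alone. An exchanged library can match by chance, so a match does not show that a pig's other labels are right. With so few pigs the adjusted p of each of the 7 genes was 0.998 by edgeR. The 5 of 10 muscle fibre markers with a row summed to 32193 to 46249 CPM, the count scaled to a common library size, in high IMF pigs and to 33961 to 61776 in low IMF pigs. The 8 adipocyte markers summed to 351 ± 39.7 CPM (SD, n = 6) in high IMF pigs and to 380 ± 141 CPM (SD, n = 6) in low IMF pigs (exact permutation p = 0.948, two-sided). The group labelled high in fat thus did not have the higher sum. PLIN4 reached 63061 counts in a pig and ADIPOQ, the next marker, 12893, so the sum leaned on PLIN4. It was not tested as a measure of fat content. Gene by gene, 6 of the 8 had a higher and 2 a lower fitted level in the low IMF group, beside 6902 of 14262 genes higher.

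Across the 12 pigs the receptor NR3C1 was the most abundant of the 7 genes. Per kilobase of merged exon, its level was 30.7 ± 5.21 CPM (SD, n = 12), and it was the highest of the 7 genes in 12 of 12 pigs. SGK1 came next with 9.74 ± 6.41 CPM per kilobase, ZBTB16 with 7.89 ± 2.85, FKBP5 with 6.59 ± 3.97, ERRFI1 with 4.80 ± 4.30 and HSD11B1 with 3.19 ± 1.86. NR3C2 was lowest on average, at 2.14 ± 0.232 CPM per kilobase, and was the lowest of the 7 genes in 7 pigs, HSD11B1 being so in 4 and ERRFI1 in 1. Apart from NR3C1, neighbours in this order were not separated beyond their spread, since SGK1 exceeded ZBTB16 in 6 of 12 pigs, ZBTB16 exceeded FKBP5 in 9, FKBP5 exceeded ERRFI1 in 9, ERRFI1 exceeded HSD11B1 in 7 and HSD11B1 exceeded NR3C2 in 8.

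The receptors and the other genes differed in how much they varied among pigs of the same group. Ranked by the within-group SD of log2 CPM, NR3C2 stood at percentile 3.20 of the 14262 genes tested and NR3C1 at percentile 38.4. ZBTB16 stood at percentile 67.7, SGK1 at 85.5, FKBP5 at 87.7, HSD11B1 at 88.3 and ERRFI1 at 89.7. The mineralocorticoid receptor was thus among the steadiest genes of the muscle, and 4 of the other genes were among the more variable. Over the 12 pigs the highest CPM was 1.41 times the lowest for NR3C2, 1.75 times for NR3C1, 4.11 times for ZBTB16 and 8.53 times for ERRFI1.

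**Figure D1:**
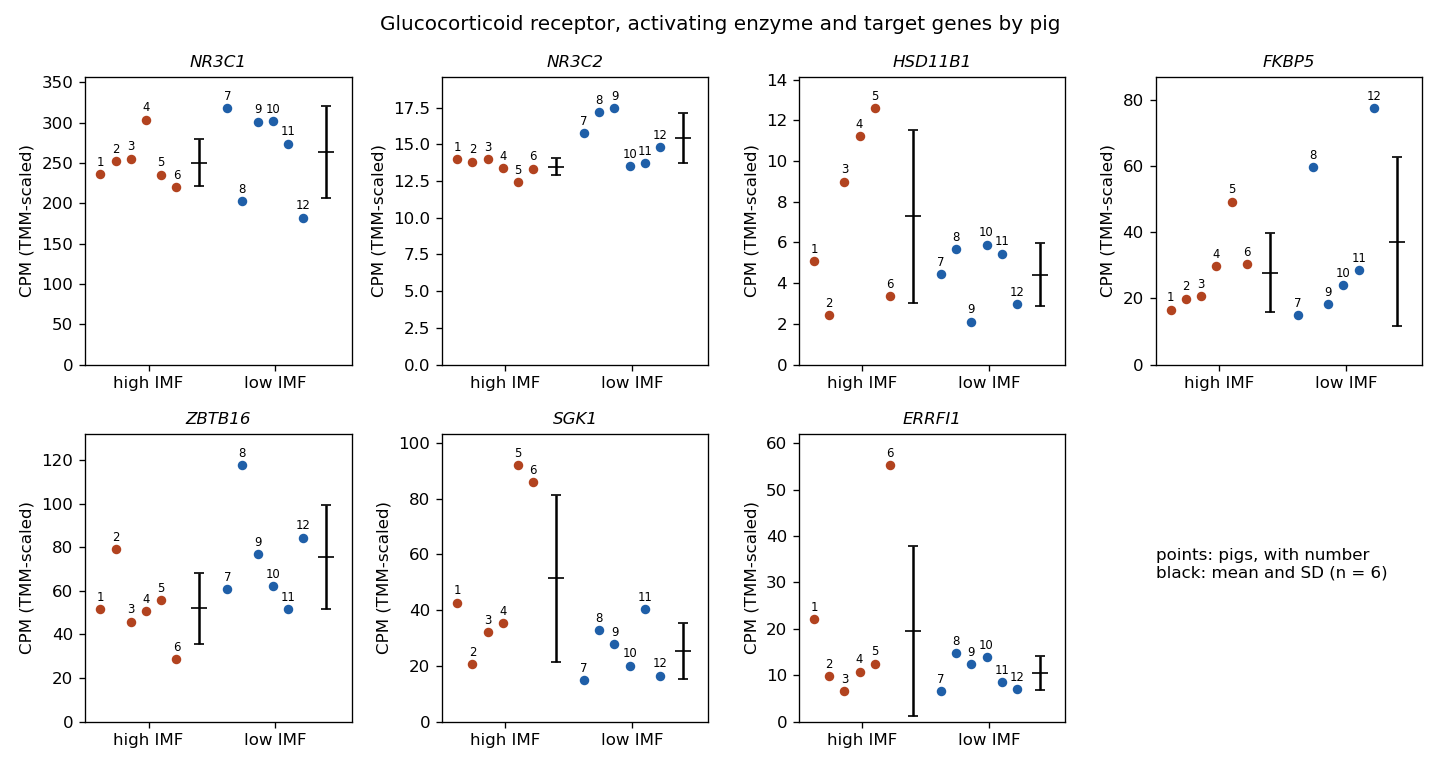
CPM after TMM scaling (vertical axis, from 0) of the 7 genes in each pig, with the pig's number, by IMF group; black bars are the mean and SD of the 6 pigs. Low IMF pigs 8 and 12 have the highest FKBP5 and the lowest NR3C1, high IMF pigs 5 and 6 the highest SGK1, and pig 6 alone stands at 55.3 CPM of ERRFI1.

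None of the receptors, the enzyme or the targets was a differentially expressed gene (DEG) by edgeR's quasi-likelihood test, 0 of 7 in all. A DEG had an adjusted p no higher than 0.05 and a log2 fold change (log2FC, the low over the high IMF group) of 0.58 or more in either direction. The background was 0 of 14262 genes tested, or 0%. With an unadjusted p no higher than 0.05 there were 2 of the 7, ZBTB16 and SGK1, beside 1486 genes, or 10.4% of all tested. DESeq2's Wald test called 65 of 16685 genes, or 0.39%, and 0 of the 7, whose smallest adjusted p by that test was 0.185 for SGK1. The groups overlapped for each of the 7 genes, while they were separate for 0.659% of all genes. Over the 23 alternatives tried, the adjusted p of these genes ranged from 0.185 to 0.998. In bulk muscle, fewer cells of a type and less RNA per cell cannot be told apart in any of these values.

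The glucocorticoid receptor gene NR3C1 (ENSSSCG00000014401, chr2:144822937-144956451, minus strand; this and later positions are RefSeq genes on Sscrofa11.1) differed between the groups by less than its error. Its lowest, median and highest values were 220, 244 and 303 CPM in high IMF pigs, and 182, 287 and 318 CPM in low IMF pigs. Low IMF pigs thus held both the 2 lowest values, pigs 12 and 8, and the highest, pig 7. The log2FC was 0.07 ± 0.14 (SE; adjusted p = 0.899), with 2 SE on either side reaching from -0.22 to 0.36. Without pigs 8 and 12, a choice made after seeing the data, it was 0.26 (edgeR adjusted p = 0.660), and in the 6 pigs that matched their labelled sex it was -0.14.

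The mineralocorticoid receptor gene NR3C2 (ENSSSCG00000037766, chr8:80303172-80669050, plus strand) showed a small difference between groups that overlapped. Its lowest, median and highest CPM were 12.4, 13.6 and 13.98 in high IMF pigs against 13.5, 15.3 and 17.5 in low IMF pigs. Pigs 7, 8, 9 and 12 of the low IMF group lay above every high IMF pig, and pigs 10 and 11 lay among them. The log2FC was 0.19 ± 0.09 (SE; unadjusted p = 0.0512, adjusted p = 0.479 by edgeR). An exact permutation test of the mean log2 CPM over 924 arrangements of the pigs gave p = 0.0303 (two-sided, smallest possible 0.00216), not adjusted for the 7 genes tested. Leaving out any single pig kept the log2FC between 0.15 and 0.23, and in the 6 matching pigs it was 0.07.

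HSD11B1 (ENSSSCG00000015616, chr9:133231451-133278396, minus strand), which supplies the receptor with active hormone, was spread widely among high IMF pigs. They ranged from 2.43 to 12.6 CPM with a median of 7.03, and low IMF pigs from 2.11 to 5.88 CPM with a median of 4.95. High IMF pigs 3, 4 and 5 lay above every low IMF pig, while pigs 1, 2 and 6 of the same group lay within the low IMF range. The log2FC was -0.72 ± 0.39 (SE; adjusted p = 0.536, exact permutation p = 0.247), and it was -0.49 without pig 5. In the 6 matching pigs it was -0.39. Fibro-adipogenic stroma markers, 6 of 6 with counts, summed to 1075 to 2183 CPM in high IMF pigs and to 1660 to 2634 CPM in low IMF pigs. Their sum, which leaned on COL3A1 with up to 296886 counts in a pig, had r = -0.72 with HSD11B1 over the 12 pigs. No p was computed for this r, which is one of those between each marker sum and each of the 7 genes. Among the others, the endothelium sum had -0.69 with ERRFI1. The part of the stroma markers in the HSD11B1 result was not tested.

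FKBP5 (ENSSSCG00000001549, chr7:31441764-31550704, minus strand) encodes a chaperone partner that lowers the receptor's affinity for hormone and is itself induced by the receptor, a feedback loop. The receptor binds DNA as a pair at a palindrome with a short spacer between its arms. The full palindrome, AGAACA followed by any 3 bases and TGTTCT, which reads alike on both strands, was searched in the RefSeq gene bodies of Sscrofa11.1, and it is shown because FKBP5 was the only one of the 7 genes to hold it. Of 19560 protein-coding genes 199, or 1.02%, held at least 1 match, and 5 held at least 2. FKBP5 held 2, both in introns, printed on the gene's strand with the palindrome in capitals and 20 bases on either side. The first lies at chr7:31513949-31514003, 36728 bases from the gene start, and the second at chr7:31467770-31467824, 82907 bases from it.
FKBP5 intronic match nearer the gene start: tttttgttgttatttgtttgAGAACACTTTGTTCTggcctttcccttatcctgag
FKBP5 intronic match farther from the gene start: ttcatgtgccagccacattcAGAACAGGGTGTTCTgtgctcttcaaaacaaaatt
A match of letters is a description and not a shown binding site, and the lack of a full match in NR3C1, NR3C2, HSD11B1, ZBTB16, SGK1 and ERRFI1 says only that these exact letters are not in those gene bodies.

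Among the 12 pigs FKBP5 was carried by a few animals. High IMF pigs had 16.6, 25.2 and 49.2 CPM as the lowest, median and highest value, and low IMF pigs 14.9, 26.3 and 77.5 CPM. The medians were close, and the 2 highest values, 77.5 CPM in pig 12 and 59.7 CPM in pig 8, were both in the low IMF group, followed by pig 5 of the high IMF group. The log2FC of 0.42 ± 0.40 (SE; adjusted p = 0.742, exact permutation p = 0.587) rested on those animals. It was 0.08 without pig 12, 0.66 without pig 5 and -0.36 without pigs 8 and 12, the last chosen after seeing the data. In the 6 matching pigs, which include pig 12 and not pigs 5 and 8, it was 1.15 ± 0.40 (SE).

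ZBTB16 (ENSSSCG00000030095, chr9:41639536-41839254, plus strand) encodes the zinc finger transcription factor PLZF. Its lowest, median and highest levels were 28.6, 51.0 and 79.2 CPM in high IMF pigs, and 51.6, 69.3 and 118 CPM in low IMF pigs. Low IMF pigs 8 and 12 lay above every high IMF pig, and high IMF pigs 1, 3, 4 and 6 lay below every low IMF pig. The log2FC was 0.54 ± 0.23 (SE; unadjusted p = 0.0365, adjusted p = 0.452 by edgeR), and the exact permutation p was 0.0541. It was 0.38 without pig 8, 0.28 without pigs 8 and 12 and 0.38 in the 6 matching pigs.

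SGK1 (ENSSSCG00000021443, chr1:29625786-29753619, plus strand), a kinase that acts on ion channels and on FOXO factors and that both receptors induce, had the smallest p of the 7 genes by edgeR and by DESeq2's Wald test, while by the exact permutation test that of NR3C2 was smaller. High IMF pigs ranged from 20.7 to 92.1 CPM with a median of 39.1, and low IMF pigs from 14.9 to 40.3 CPM with a median of 23.9. High IMF pigs 5 and 6, at 92.1 and 85.9 CPM, and pig 1 at 42.7 CPM lay above every low IMF pig, and low IMF pigs 7, 10 and 12 lay below every high IMF pig. The log2FC was -1.02 ± 0.37 (SE; unadjusted p = 0.0150, adjusted p = 0.427 by edgeR), and the exact permutation p was 0.0498. Leaving out each pig in turn gave values from -1.20 without pig 11 to -0.77 without pig 5. Without both pigs 5 and 6, chosen after seeing the data, it was -0.37 ± 0.29 (SE; adjusted p = 0.875), and in the 6 matching pigs it was -0.70.

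ERRFI1 (ENSSSCG00000035774, chr6:68667651-68682629, minus strand), an inhibitor of the epidermal growth factor receptor, was high in a single animal. High IMF pigs ranged from 6.48 to 55.3 CPM with a median of 11.6, and low IMF pigs from 6.51 to 14.8 CPM with a median of 10.4. Pig 6 held the 55.3 CPM, pig 1 came next with 22.01 CPM, and the other 4 high IMF pigs lay within or just under the low IMF range. The log2FC was -0.89 ± 0.46 (SE; adjusted p = 0.513, exact permutation p = 0.292), and without pig 6 it was -0.23. In the 6 matching pigs, pig 6 included, it was -1.66 ± 0.73 (SE).

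SGK1 and ERRFI1 are also known to respond to growth factors and to acute stress of the tissue, and a list of immediate early genes was read beside them. Of 10 such genes 9 had a row, 1 of them at 0 in every pig, and their sum was 1434 ± 416 CPM (SD, n = 6; 935 to 2037) in high IMF pigs and 958 ± 311 CPM (SD, n = 6; 669 to 1421) in low IMF pigs (exact permutation p = 0.0455, two-sided). This p was not adjusted for the other marker sums tested. The sum leaned on ATF3, with up to 133742 counts in a pig, and on FOS, with up to 95236. That sum was highest in pig 6, and over the 12 pigs it had r = 0.73 with SGK1 and r = 0.61 with ERRFI1. Its part in the SGK1 and ERRFI1 values was not tested.

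To describe a joint response, the log2 CPM of FKBP5, ZBTB16, SGK1 and ERRFI1 was scaled to a mean of 0 and an SD of 1 over the 12 pigs and averaged in each pig. This joint level was highest in low IMF pig 8, at 0.91, followed by high IMF pigs 5, at 0.67, and 6, at 0.56. It was lowest in low IMF pig 7, at -0.89, and high IMF pig 3, at -0.61. By their labels, the pigs at both ends thus came from both groups. Of these, pigs 3, 5, 7 and 8 did not match their labelled sex, and pig 6 did. The mean was 0.04 ± 0.49 (SD, n = 6) in high IMF pigs and -0.04 ± 0.59 (SD, n = 6) in low IMF pigs. The difference, low minus high IMF, was -0.09 and depended on which targets were averaged. It was -0.47 without ZBTB16 and 0.25 without SGK1.

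The pigs reached a high joint level through different genes. Pig 8 was among the 3 highest pigs for FKBP5, ZBTB16 and ERRFI1, and its SGK1 lay at the mean, 0.01 SD above it. Pig 5 was high in SGK1 (1.79 SD above the mean) and FKBP5 (1.06 SD) and near the mean in ZBTB16 and ERRFI1. Pig 6 had the highest ERRFI1, 2.52 SD above the mean, and the lowest ZBTB16, at -2.07 SD. Pig 12 had the highest FKBP5, at 1.92 SD, with SGK1 at -1.18 SD. No pig was among the 3 highest for all 4 targets, and pig 7 was among the 3 lowest for FKBP5, SGK1 and ERRFI1 while it had the highest NR3C1.

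**Figure D2:**
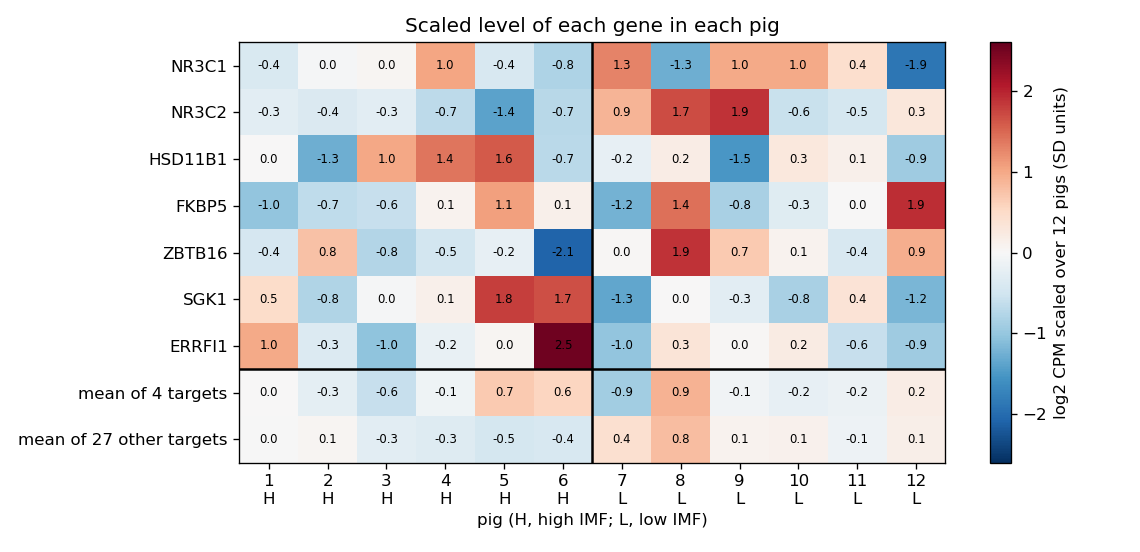
Level of each gene in each pig as log2 CPM scaled over the 12 pigs (colour and printed value, in SD units), with the mean of the 4 targets and the mean of 27 other known targets in the last rows; H is high and L low IMF. Pig 8 is high in both means (0.91 and 0.80), while pig 5 is at 0.67 in the first and at -0.46 in the second.

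Over the 12 pigs, 21 pairs of the 7 genes were compared, and 0 had a Benjamini-Hochberg adjusted permutation p no higher than 0.05. The strongest pair was the receptor and its feedback partner: NR3C1 and FKBP5 had r = -0.74 (permutation p = 0.00534, adjusted p = 0.112) and Spearman's rho = -0.66 (permutation p = 0.0238, adjusted p = 0.263). Pigs 12 and 8, lowest in NR3C1, were highest in FKBP5, and pig 7, highest in NR3C1, was lowest in FKBP5. Without pigs 8 and 12, the farthest from the median of NR3C1, r was -0.38 (permutation p = 0.282), so the relation rests on those pigs. Within the low IMF group r was -0.98 (n = 6, exact permutation p = 0.00278), and within the high IMF group it was -0.06 (n = 6, exact permutation p = 0.914). The difference between the groups was not tested. Both values are unadjusted and stand among those of all 21 pairs within each group, and the low IMF value includes pigs 8 and 12. Of all genes tested, 0.421% had an r with NR3C1 as far below 0 as that of FKBP5.

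Among the targets, SGK1 and ERRFI1 had r = 0.65 (permutation p = 0.0217, adjusted p = 0.176) and rho = 0.57 (permutation p = 0.0588, adjusted p = 0.263). Without pigs 5 and 6 their r was 0.50 (permutation p = 0.146). ZBTB16 and SGK1, both known targets, had r = -0.57 (permutation p = 0.0546, adjusted p = 0.287) and rho = -0.57 (permutation p = 0.0594, adjusted p = 0.263), and without pigs 6 and 8 r was -0.55. Without pig 6 alone it was -0.35, after centring on the group means -0.37, and within groups -0.64 in high and 0.07 in low IMF pigs, so this value leaned on pig 6 and on the high IMF group. FKBP5 and ZBTB16 had r = 0.33 (permutation p = 0.291, adjusted p = 0.678) and rho = 0.17 (permutation p = 0.588, adjusted p = 0.727), and -0.36 without pigs 8 and 12, which are the 2 highest pigs for both genes. FKBP5 and ERRFI1 had r = 0.01 (permutation p = 0.987, adjusted p = 0.990) and rho = 0.19 (permutation p = 0.557, adjusted p = 0.727).

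NR3C2 paired with ZBTB16, with r = 0.64 (permutation p = 0.0251, adjusted p = 0.176) and rho = 0.56 (permutation p = 0.0627, adjusted p = 0.263). Without pigs 8 and 9, the highest in NR3C2, r was 0.36, and within groups it was 0.08 in high and 0.68 in low IMF pigs. The 2 receptor genes had r = 0.00 with each other over the 12 pigs (permutation p = 0.990, adjusted p = 0.990; rho = 0.01, permutation p = 0.974, adjusted p = 0.974). NR3C2 and FKBP5 had r = -0.97 among high IMF pigs (n = 6, exact permutation p = 0.00972) and -0.02 among low IMF pigs (n = 6, exact permutation p = 0.963), with -0.04 over all 12, one of 42 such values within groups.

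**Figure D3:**
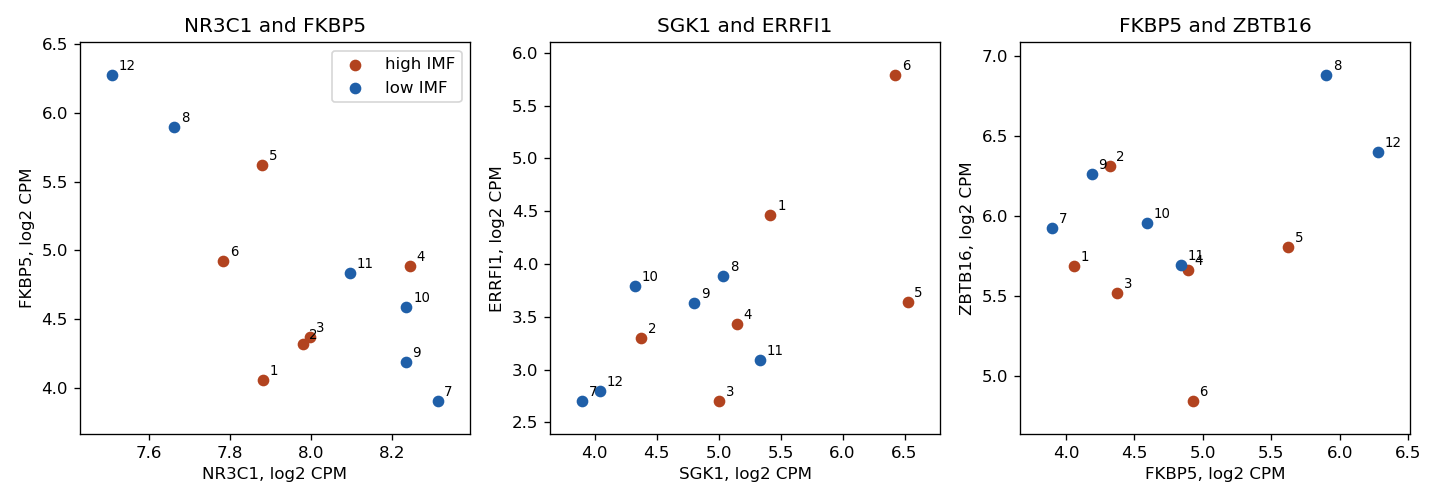
Log2 CPM of NR3C1 and FKBP5, of SGK1 and ERRFI1, and of FKBP5 and ZBTB16, 1 point per pig with its number, coloured by IMF group. FKBP5 is highest where NR3C1 is lowest in pigs 8 and 12, SGK1 and ERRFI1 are both high in pig 6, and pigs 8 and 12 stand apart in the last panel.

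Next came the proteins that fold and hold the receptor. Of 12 receptor complex genes 11 were tested, and 0 were DEGs by edgeR. The fitted level in the low IMF group was higher for 8 and lower for 3, beside 6902 of 14262 genes higher. The gene not tested was HSP90AA1, an HSP90 gene with 0 counts in every pig, and the cause of that was not tested. HSP90AB1, also an HSP90 gene, was at 396 ± 77.7 CPM (SD, n = 6) in high and 382 ± 71.6 CPM (SD, n = 6) in low IMF pigs. Its log2FC was -0.05 ± 0.16 (SE; adjusted p = 0.938 by edgeR). CDC37, a kinase co-chaperone of HSP90, was the only one of the 11 with an unadjusted p no higher than 0.05, beside 10.4% of all genes, with 30.9 ± 5.70 CPM (SD, n = 6) in high and 37.9 ± 5.23 CPM (SD, n = 6) in low IMF pigs (log2FC 0.30 ± 0.13, SE; adjusted p = 0.463). PTGES3, the p23 co-chaperone, had a log2FC of 0.17 and ST13 of 0.13, and HSPA8, the constitutive HSP70 protein, had -0.24 with its highest value, 3006 CPM, in pig 6.

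For steroid conversion, 4 of 7 listed genes were tested, 0 were DEGs by edgeR, and 1, H6PD, had an unadjusted p no higher than 0.05, beside 10.4% of all genes. H6PD makes the cofactor that drives HSD11B1 towards cortisol. It was at 14.9 ± 1.86 CPM (SD, n = 6) in high and 19.2 ± 3.43 CPM (SD, n = 6) in low IMF pigs (log2FC 0.37 ± 0.13, SE; adjusted p = 0.427), while HSD11B1 itself had the opposite sign, and in the 6 matching pigs the log2FC of H6PD was 0.14. HSD11B2, which inactivates cortisol, was near the limit of these libraries at 0.0941 ± 0.0604 CPM (SD, n = 6) in high and 0.135 ± 0.0509 CPM (SD, n = 6) in low IMF pigs. AKR1D1 and SRD5A1, steroid reductases, had at most 110 and 85 counts in a pig, and no direction is drawn from their values.

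All 11 coregulator genes were tested, with 9 higher and 2 lower fitted levels in the low IMF group, 0 DEGs by edgeR and 2 genes with an unadjusted p no higher than 0.05, beside 6902 of 14262 genes higher in that group and 10.4% at that p over all genes. CREBBP, an acetyltransferase that the receptor recruits, was at 39.3 ± 12.0 CPM (SD, n = 6) in high and 61.0 ± 14.7 CPM (SD, n = 6) in low IMF pigs (log2FC 0.63 ± 0.20, SE; adjusted p = 0.420). NCOA2, a receptor coactivator, had a log2FC of 0.33 ± 0.13 (SE; adjusted p = 0.441 by edgeR), EP300 of 0.36 and TRIM28 of 0.23. In the 6 pigs that matched their labelled sex, the log2FC was 0.22 for CREBBP, 0.06 for EP300, 0.01 for TRIM28 and 0.40 for NCOA2. Pig 8 was the highest pig for CREBBP, NCOA2 and TRIM28, as it was for ZBTB16.

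A longer list of other known glucocorticoid targets was read beside the 4 chosen ones. Of 29 symbols 27 were tested, and 0 were DEGs by edgeR. The fitted level was higher in the low IMF group for 22 and lower for 5, with a median log2FC of 0.37, beside 6902 of 14262 genes higher and a median of -0.01 over all genes tested. The 22 include TAT and PCK1, which had at most 124 and 137 counts in a pig. No direction is drawn from either gene alone. With an unadjusted p no higher than 0.05 there were 7 on the low IMF side, namely LPIN1, FOXO1, CRISPLD2, FOXO3, TRIM63, FBXO32 and KLF15, and 1 on the high IMF side, DUSP1, which is 8 of 27 beside 10.4% of all genes tested (767 on the low and 719 on the high IMF side). FOXO1, FOXO3, TRIM63 and FBXO32 belong to the programme of muscle protein breakdown. The list and its reading were made with earlier results of these data known, so its count is a description.

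LPIN1, an enzyme of triglyceride synthesis, had the smallest p of that list, with 40.3 ± 11.0 CPM (SD, n = 6) in high and 66.1 ± 14.6 CPM (SD, n = 6) in low IMF pigs (log2FC 0.71 ± 0.20, SE; adjusted p = 0.367). FOXO1, a fasting response factor, had a log2FC of 0.73 ± 0.26 (SE; adjusted p = 0.427 by edgeR) and CRISPLD2 of 0.60 ± 0.22 (SE; adjusted p = 0.434). DUSP1, a phosphatase that is also an immediate early gene, had 133 ± 23.9 CPM (SD, n = 6) in high and 74.9 ± 35.1 CPM (SD, n = 6) in low IMF pigs (log2FC -0.83 ± 0.28, SE; adjusted p = 0.427), the same sign as SGK1 and ERRFI1. In the 6 matching pigs the log2FC was 0.60 for LPIN1, 0.85 for FOXO1, 0.72 for CRISPLD2 and -0.64 for DUSP1.

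**Figure D4:**
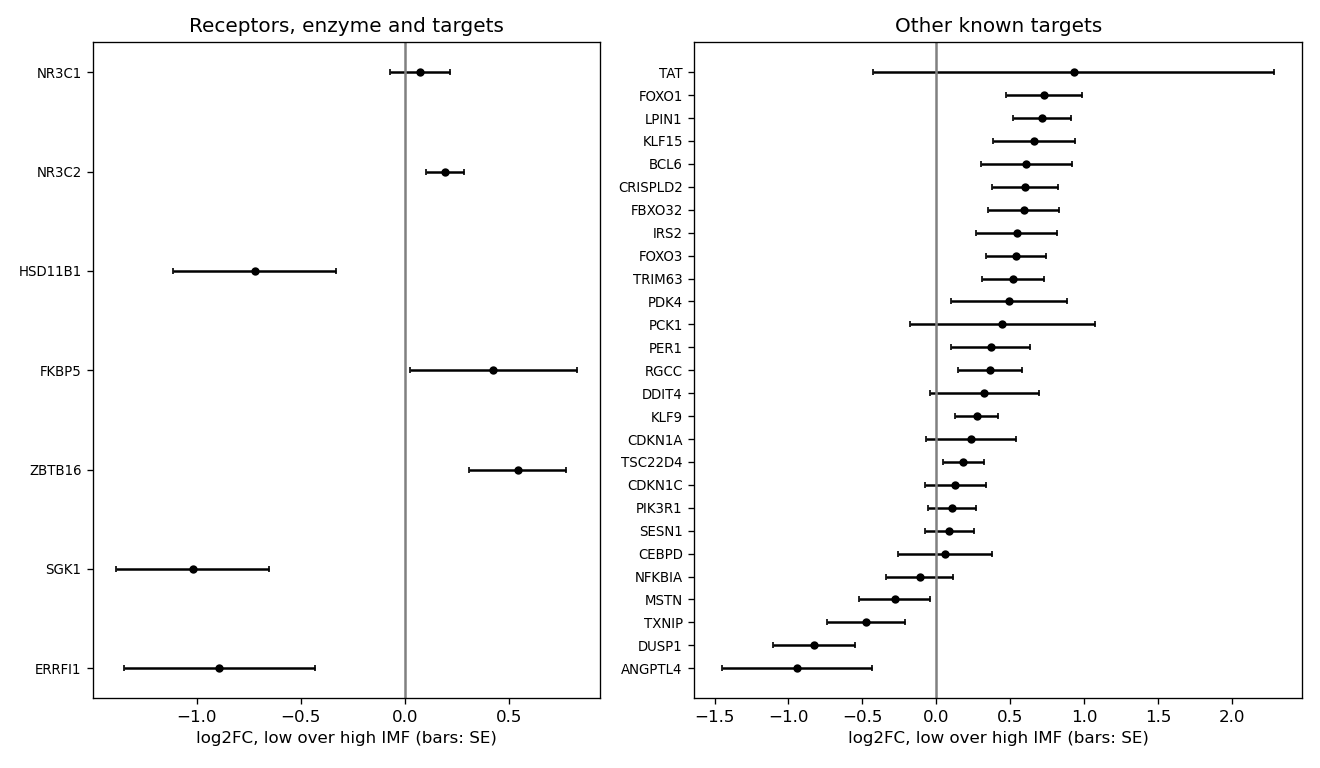
Log2FC, low over high IMF, with its SE as bars, for the 7 genes (left) and for 27 other known targets (right). SGK1, ERRFI1 and HSD11B1 lie left of 0 and NR3C2, FKBP5 and ZBTB16 right of it, and 22 of the 27 other targets lie right of 0.

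Averaged as scaled values, these 27 genes stood at -0.24 ± 0.22 (SD, n = 6) in high and 0.24 ± 0.32 (SD, n = 6) in low IMF pigs. Pig 8 was highest, at 0.80, with 23 of 27 genes above their mean, and pig 5 was lowest, at -0.46, with 9 of 27. The share of all genes above their mean in each pig was not computed. These counts therefore do not show a trait of the targets apart from the whole library. Pig 5, second in the joint level of the 4 targets, was thus last here, and pig 8 led both.

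The 7 genes differed in which of these other targets they followed. ZBTB16 had a positive r with 21 of 27 over the 12 pigs (median 0.44, beside 48.5% of all genes positive), the highest with FOXO3 at 0.93, KLF15 at 0.83 and TSC22D4 at 0.82. NR3C2 was positive with 24 of 27 (median 0.28, beside 49.0% of all genes), again highest with FOXO3 at 0.84 and KLF15 at 0.77. FKBP5 was positive with 14 of 27 (beside 51.5% of all genes) and its median r was 0.00. SGK1 was positive with 7 of 27 (beside 52.4% of all genes) and lowest with LPIN1, at -0.79. ERRFI1 was positive with 8 of 27 (beside 50.1%) and highest with ANGPTL4, at 0.71. NR3C1 was positive with 10 of 27 (beside 47.6%), with a median of -0.04. HSD11B1 was also positive with 10 of 27 (beside 49.2%), with a median of -0.26. These r values are descriptions over the same 12 libraries. They were not centred on the group means, so differences between the groups enter them.

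Over all tested genes with a symbol, those whose log2 CPM over the 12 pigs was most like each gene were named by r. Being picked as the highest of 11837 genes, these r values are high by selection. For FKBP5 they were DLG2 (0.90), TCTA (0.89), TESC (0.88), VIPR2 (0.87) and TBC1D5 (0.83), of which DLG2, VIPR2 and TBC1D5 were also highest in pig 12. DLG2, TESC and VIPR2 had few counts, with -0.59, -0.85 and 0.01 log2 CPM as their highest values in any pig. NR3C1 was most like CDK2AP1 (0.88), BCKDHB (0.88) and CSPP1 (0.87), all lowest in pig 12. NR3C2 was most like IGF1R (0.92), CECR2 (0.91) and MAP3K14 (0.90), all lowest in pig 5. ZBTB16 was most like NUMA1 (0.93), FOXO3 (0.93) and WDR17 (0.93), all highest in pig 8 and lowest in pig 6. HSD11B1 was most like CXCL9 (0.94), DNAJC12 (0.92) and LAS1L (0.92). SGK1 was most like TRMT5 (0.95), RBMX (0.90) and HSPB3 (0.87), all lowest in pig 12. ERRFI1 was most like LARP6 (0.97), EMP1 (0.96) and IL6 (0.96), all highest in pig 6 and lowest in pig 7. FOXO3 alone among these was also on the list of other glucocorticoid targets.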

How the data were processed

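Per the labels and the study's methods, the authors made stranded polyadenylated RNA libraries from each pig, trimmed reads with Trimmomatic, aligned them to Sscrofa11.1 (HISAT2), used StringTie for transcripts and HTSeq for counts per Ensembl gene; the deposited values are raw counts, and the strand setting of the counting is not given in the sources used here, so antisense partners and near-identical copies are uncertain. Symbols came from a table of pig gene names, which matched 14857 of 25880 genes. From the counts, TMM scaling, edgeR's filterByExpr and its quasi-likelihood test (R 4.3.3, edgeR 4.0.16) compared the groups over 14262 genes with the group as the only term and Benjamini-Hochberg adjustment over all of them. Log2 CPM used a prior count of 2. DESeq2 1.42.0 and limma 3.58.1 gave alternatives, and the edgeR fit was tested on simulated counts. Single genes were compared by exact permutation over 924 arrangements, and correlations over 12 pigs used 100000 resamples (scipy 1.17.1), adjusted over 21 pairs. Pigs are separate animals. The joint level averages 4 targets, since TSC22D3 is not analysed here. RefSeq genes were matched by symbol. Genes named beside the 7 are the 4 of smallest p in each list and those of highest r (5 for FKBP5, 3 for the others). FOXO3, TRIM63, FBXO32 and KLF15, other targets given for their r, and the samples left out in pairs were chosen after their values were seen. So were the HSP90 genes, TAT, PCK1 and the adipocyte, stroma and immediate early genes named singly. The genes and lists were chosen with earlier results of these data known.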

Additional observations from a re-analysis of the deposited data

Results flagged for a closer look

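ERRFI1 in high IMF pig 6 was at 55.3 CPM, far from the other 5 high IMF pigs, of which the next was pig 1 at 22.01 CPM. The gap to pig 1 was 0.682 of the whole range of the group, above the critical value of Dixon's test for 6 samples. That holds on the CPM scale: on log2 CPM, a scale added after seeing the data, the share was 0.430, under the critical value, and no gene and group passed, the largest share being 0.603. The test was made on the highest and the lowest pig of 14 groups, 7 genes in each IMF group, and chance alone passes about 1 in 20 groups.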

How the results depend on the processing

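The 7 genes and the 4 lists gave 0 DEGs with edgeR and under each of the 23 alternatives, DESeq2's Wald test included. Over all genes tested the count went from 0 to 65 with DESeq2's Wald test, and leaving out each pig in turn gave 0 to 1 (1 without pig 5 and 1 without pig 10). Pairs of the 7 genes past an adjusted p of 0.05 went from 0 to 1 when each pig was left out, the 1 being NR3C1 and FKBP5 without pig 1 (r = -0.84, permutation adjusted p = 0.0273); the cause was not tested. Among 161 fitted values of the 7 genes 159 kept their sign and 2 reversed, NR3C1 to -0.14 in the 6 pigs that matched their labelled sex and FKBP5 to -0.36 without pigs 8 and 12. Among named list genes 361 kept theirs and 5 reversed: HSD11B2 to -0.070 and SRD5A1 to -0.34 in the 6 matching pigs, SRD5A1 with each pig left out in turn (-0.060 without pig 3 to 0.203 without pig 2), and, without pigs 5 and 6, SRD5A1 to -0.035 and HSPA8 to 0.042; the cause was not tested. No paired analysis was possible because the labels number the pigs from 1 to 12 and give the groups no shared replicate numbers. Depth limits HSD11B2, with at most 27 counts in a pig, and SRD5A1, with at most 85, so no direction is drawn from their signs above.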

Other observations

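IL6, the interleukin gene whose level was among the most like that of ERRFI1, differed more between pigs than any of the 7 glucocorticoid genes. Its log2 CPM was 5.11 in high IMF pig 6, 2.53 in the next high IMF pig and between -3.52 and 0.20 in low IMF pigs. The log2FC was -4.03 ± 1.23 (SE; unadjusted p = 0.00561, adjusted p = 0.419 by edgeR), and its spread within groups was at percentile 99.2 of all genes tested. The study, which used DESeq2, listed IL6 among its DEGs, higher in high IMF pigs. Its partners LARP6 and EMP1 were also highest in pig 6, at 4.19 and 8.52 log2 CPM.

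The age of the pigs was set beside the 7 genes after the data had been seen. Of the 7, FKBP5 had the r farthest from 0, with r = -0.70 over 12 pigs (permutation p = 0.0113, adjusted over 7 relations p = 0.0792) and rho = -0.61 (permutation p = 0.0367, adjusted p = 0.257). Without pigs 9 and 12, the farthest from the median age, r was -0.83, and within groups it was -0.80 in high (n = 6, exact permutation p = 0.0389) and -0.65 in low IMF pigs (n = 6, exact permutation p = 0.176). Of all genes tested, 0.540% had an r with age as far below 0. Pig 12, at 229 days, was the youngest and highest in FKBP5, and pig 7, at 249 days, the oldest and lowest. Ages come from the same labels as the sexes that 6 pigs did not match.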
